A study of Rattus norvegicus with 16 samples.

Results

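Gad1 and Gad2 encode the enzymes that make GABA, the main inhibitory transmitter of the spinal dorsal horn together with glycine. These 2 genes were read from the rows ENSRNOG00000000007 (Gad1) and ENSRNOG00000018200 (Gad2) of a table of 30560 rat gene IDs, and both passed the filter on low counts that kept 15237 genes. Neither gene was called changed after nerve injury in wild-type or LPA4-knockout rats, between the genotypes, or in the interaction. Few genes were called at all: 0.0788% of the 15237 for injury in wild type and 0.105% in knockouts, all of them higher. Between the genotypes 0.0131% were called after either operation, and 0% in the interaction. The widest departure of either gene from its usual level was found in a single sham-operated wild-type library. Several of the comparisons changed direction without that library. Leaving out the highest library of the same group instead moved these comparisons the other way. For injury against sham in wild type, the log2 fold change over all libraries was 0.028 for Gad1 and 0.33 for Gad2. It was -0.25 and 0.020 without the low library, and 0.30 and 0.67 without the high one.

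Poly(A) RNA of the rat lumbar dorsal horn was counted in 16 libraries prepared 28 days after surgery. The groups were wild-type (WT) rats after a sham operation, WT rats after spared nerve injury (SNI), LPA4-KO rats after sham and LPA4-KO rats after SNI, with 4 libraries each. SNI cuts some branches of the sciatic nerve and spares another, and is a model of neuropathic pain. LPA4 is one of the receptors that bind lysophosphatidic acid, a signalling lipid. The titles of the 4 KO sham libraries give WT in the place of the operation, and they were taken as sham because sham and SNI are the operations in the series design and the table's headers call them KO sham. The labels give no age, sex or strain, do not say how the knockout was made, and do not tie libraries to individual rats, so a p-value covers only the spread among the libraries as deposited, which may be technical.

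Inhibitory interneurons of the dorsal horn use either or both enzymes. Gad1 encodes GAD67, which is found throughout the cell and makes most of the basal GABA, and Gad2 encodes GAD65, which is concentrated at axon terminals and supports GABA made for synaptic release. Loss of this inhibition after nerve injury is one proposed contributor to neuropathic pain, and the comparison of SNI with sham asks whether the RNA of these enzymes was lower 28 days after injury. In RNA from whole tissue, fewer GABA neurons and less Gad RNA per neuron cannot be told apart.

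Both genes have an entry among the RefSeq promoter sequences (build GRCr8, which is not the build of the counts). The last 58 bases before the first annotated start of each gene are shown because the genes make the same product from unlike start regions. Both are on the plus strand and are written 5′ to 3′, with capitals marking the letters TATAAA, the core of a TATA box.
Gad1, chr3:75777202-75777259: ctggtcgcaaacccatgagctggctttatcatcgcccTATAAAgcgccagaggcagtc
Gad2, chr17:89671660-89671717: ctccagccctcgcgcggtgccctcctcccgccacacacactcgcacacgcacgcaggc
The Gad1 stretch holds TATAAA beginning 21 bases before the first start, and the Gad2 stretch does not hold it. The share of G and C was 55.2% in the Gad1 stretch and 74.1% in that of Gad2. Searched on both strands over the full 300-base windows, TATAAA had 1 match at Gad1 and 0 at Gad2, and 14.2% of 33469 rat windows held at least 1. GGGCGG, the core of a GC box, had 1 match at Gad1 and 0 at Gad2, against 33.1% of windows. That match is on the minus strand at -99 bases before the first start. It thus lies past the start, where the window extends, and not in the stretch shown. GGGCGG and TATAAA share no bases in these windows. No measurement here was made at the promoters.

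Library totals ran from 15790243 to 28090152 counts. WT sham replicate 2 had the lowest total and the lowest median correlation of log2 CPM with the other 15 libraries, 0.949, against 0.973 in KO SNI replicate 1 and 0.980 to 0.987 in the remaining libraries. The table gives no symbols and 0 of 47357 genes in the reference table carry an Ensembl ID there, so markers of cell types, the other genes of GABA and glycine signalling and the targeted gene were not identified by name. The labelled tissue was therefore not checked. Each library held counts of both members, but this cannot tell the dorsal horn from other tissue with GABA neurons. As a check of the genotype labels without names, 1 ID was at 0 throughout the KO libraries with 10 or more counts in each WT library, and the reverse held for 0 IDs.

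Gad1 RNA had many counts. Its level, in TMM-scaled CPM (counts scaled to a common library size), was 148, 54.7, 170 and 228 in WT sham replicates 1 to 4. It was 152, 170, 157 and 133 CPM in WT SNI replicates 1 to 4. In KO sham it was 156, 158, 176 and 186 CPM. In KO SNI it was 146, 183, 166 and 128 CPM. WT sham held both the lowest and the highest Gad1 value of all 16 libraries, in replicates 2 and 4, and the other groups lay within that range.

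Mean Gad1 in WT was 150 ± 71.9 CPM after sham and 153 ± 15.4 CPM after SNI, and in KO 169 ± 14.6 CPM after sham and 155 ± 23.9 CPM after SNI (SD, n = 4 each). From highest to lowest the order was KO sham, KO SNI, WT SNI and WT sham, and the values of each group overlapped those of its neighbours in this order. Without replicate 2 the WT sham mean was 182 ± 41.1 CPM (SD, n = 3), which moved WT sham from the last place to the first. Gad1 stood above 92.5% of the genes tested in average log2 CPM, a rank not adjusted for gene length.

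Gad2 RNA had fewer counts. Its level was 24.6, 6.22, 29.8 and 42.0 CPM in WT sham replicates 1 to 4. In WT SNI it was 36.1, 31.1, 35.4 and 27.1 CPM. It was 28.8, 28.7, 35.8 and 44.7 CPM in KO sham. In KO SNI it was 30.4, 36.1, 22.0 and 27.7 CPM. The lowest value was again that of WT sham replicate 2, where 90 reads were assigned to Gad2, against 489 to 976 in the other libraries. The highest value was in KO sham replicate 4, followed by WT sham replicate 4.

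Mean Gad2 in WT was 25.6 ± 14.9 CPM after sham and 32.4 ± 4.18 CPM after SNI, and in KO 34.5 ± 7.57 CPM after sham and 29.1 ± 5.86 CPM after SNI (SD, n = 4 each). The order was KO sham, WT SNI, KO SNI and WT sham, again with overlap between neighbours. Without replicate 2 the WT sham mean was 32.1 ± 8.94 CPM (SD, n = 3), between KO SNI and WT SNI. Gad2 stood above 59.8% of the genes tested in average log2 CPM, also with no adjustment for gene length. Levels of Gad1 and Gad2 are not set against each other, since the table gives no gene lengths.

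**Figure D1:**
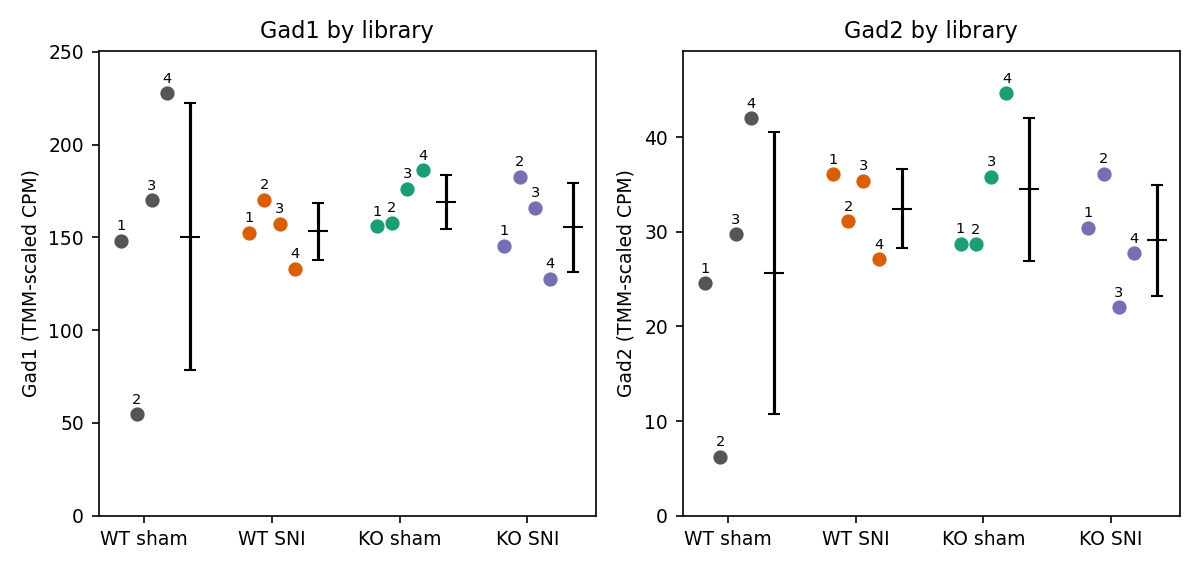
Gad1 (left) and Gad2 (right) in TMM-scaled CPM for each library, numbered by replicate, with the group mean and SD (n = 4) as a bar beside the points. WT sham replicate 2 lies at 54.7 CPM for Gad1 and 6.22 CPM for Gad2, below all other libraries, and the 4 groups overlap.

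In WT rats, SNI was not followed by a called difference in either gene. Gad1 differed by a log2 fold change of 0.028 between SNI and sham (SE 0.27; adjusted p = 1.0 by edgeR), with 3 of 4 SNI libraries above the sham mean. The 95% confidence interval of the Gad1 change ran from -31.7% to 52.3%. Gad2 had a log2 fold change of 0.33 (SE 0.35; adjusted p = 0.998 by edgeR), and all 4 SNI libraries lay above the sham mean. Its interval ran from -25.0% to 111%. In this comparison 0.0788% of the 15237 genes tested were called, all of them higher after SNI.

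Leaving out WT sham replicate 2 turned the Gad1 direction and removed most of the Gad2 difference. Gad1 was then at a log2 fold change of -0.25 (SE 0.14; adjusted p = 0.811 by edgeR), and 4 of 4 SNI libraries lay below the mean of the remaining sham libraries. The SNI values, 133 to 170 CPM, still overlapped the sham values, 148 to 228 CPM. The interval of the Gad1 change was -31.9% to 4.38%. For Gad2 the log2 fold change was 0.020 (SE 0.20; adjusted p = 0.989 by edgeR), with 2 of 4 SNI libraries above the mean and an interval of -24.7% to 36.6%. Without WT sham replicate 4, the highest WT sham library, the log2 fold change was 0.30 for Gad1 and 0.67 for Gad2, and neither was called.

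In KO rats both genes were lower on average after SNI, without being called. Gad1 had a log2 fold change of -0.12 (SE 0.27; adjusted p = 0.995 by edgeR), and 3 of 4 SNI libraries lay below the sham mean. Gad2 had a log2 fold change of -0.24 (SE 0.35; adjusted p = 0.995 by edgeR), also with 3 of 4 below. KO SNI replicate 2 was the exception for each gene. The intervals were -38.4% to 37.2% for Gad1 and -49.6% to 41.2% for Gad2. The share of all genes called in this comparison was 0.105%, again all higher.

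No KO library was left out in the fit without WT sham replicate 2, yet the KO intervals narrowed, because all groups share 1 estimate of the spread. They were then -24.6% to 12.1% for Gad1 and -35.9% to 11.1% for Gad2. The log2 fold changes stayed at -0.12 (edgeR adjusted p = 0.901) and -0.24 (edgeR adjusted p = 0.826). A fit of the 8 KO libraries alone gave log2 intervals of -0.39 to 0.14 for Gad1 and -0.65 to 0.15 for Gad2.

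Averaged over genotypes, the SNI effect was -0.047 on the log2 scale for Gad1 (SE 0.19; adjusted p = 1.0 by edgeR) and 0.044 for Gad2 (SE 0.25; adjusted p = 1.0 by edgeR). Of the SNI against sham comparisons this is the one that uses all 16 libraries, and 0.912% of genes were called, all higher after SNI. The intervals were -27.1% to 28.5% for Gad1 and -28.4% to 48.4% for Gad2. Without WT sham replicate 2 the averaged effects were -0.18 (SE 0.10) for Gad1 and -0.11 (SE 0.14) for Gad2, with edgeR adjusted p values of 0.571 and 0.809. Their intervals were -23.9% to 1.86% and -24.4% to 13.3%. Without this library, an averaged change of -24.4% or lower thus lay at or beyond the lower end of both intervals. Smaller losses lay inside at least 1 of them. Over all 16 libraries the lower ends were further out, at -27.1% and -28.4%. Leaving out WT sham replicate 4 instead gave log2 averaged effects of 0.088 (-0.29 to 0.47) for Gad1 and 0.21 (-0.29 to 0.71) for Gad2.

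**Figure D2:**
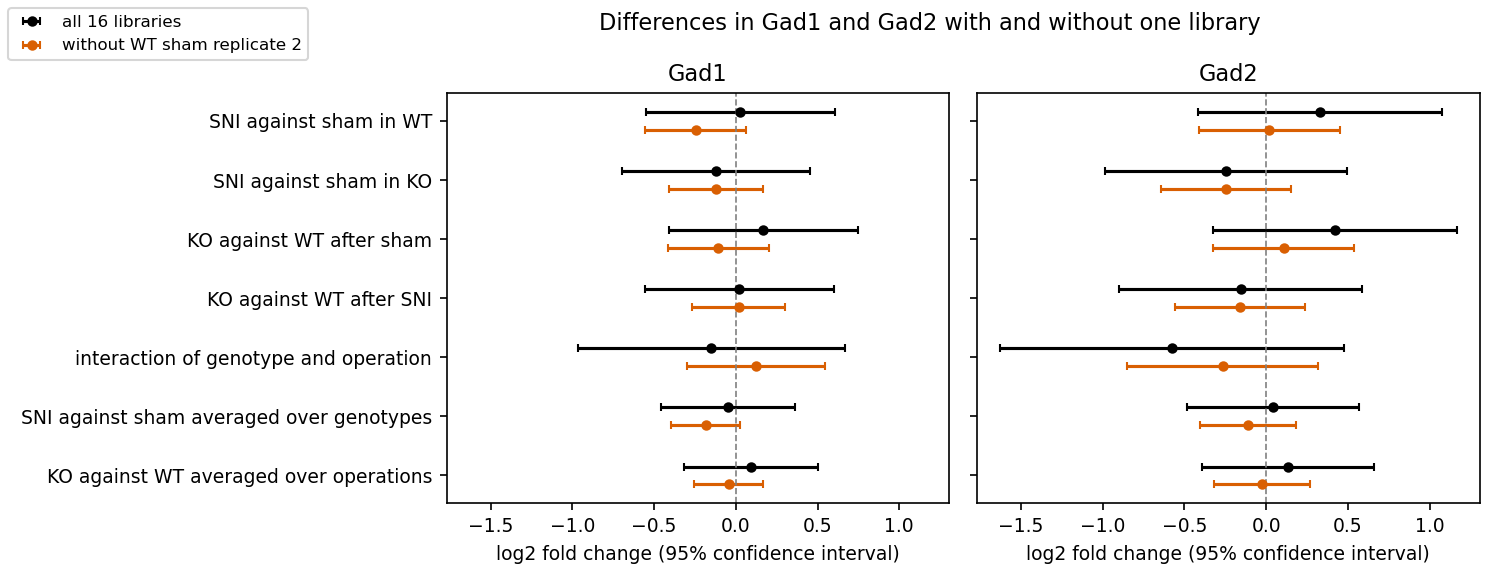
Log2 fold changes of Gad1 (left) and Gad2 (right) with 95% confidence intervals for the 7 comparisons, over all 16 libraries (black) and without WT sham replicate 2 (orange). Every interval includes 0, and leaving out the library shortens each interval, including those of comparisons in which it is not one of the groups.

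The genotypes were not told apart by either gene. After sham, Gad1 had a log2 fold change of 0.17 in KO against WT (SE 0.27; adjusted p = 0.904 by edgeR) and Gad2 one of 0.42 (SE 0.35; adjusted p = 0.878 by edgeR), with all 4 KO libraries above the WT mean for each gene. Without WT sham replicate 2 these values were -0.11 and 0.11 (edgeR adjusted p = 1.0 for each), and 1 of 4 KO libraries for Gad1 and 2 of 4 for Gad2 lay above the WT mean. When WT sham replicate 4 was left out they were 0.44 and 0.75 (adjusted p = 0.599 by edgeR for each), and the Gad2 value had an unadjusted p of 0.0479 in that fit. After SNI, where that library is not among those compared, Gad1 had a log2 fold change of 0.020 (SE 0.27) and Gad2 one of -0.16 (SE 0.35), with an edgeR adjusted p of 1.0 for each. In each of these comparisons 0.0131% of genes were called. Averaged over operations, the KO against WT values were 0.095 for Gad1 and 0.13 for Gad2 (edgeR adjusted p = 1.0 for each), and the share called was again 0.0131%.

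The interaction asks whether the response of these genes to injury depended on LPA4. The SNI effect on Gad1 was -0.12 in KO and 0.028 in WT on the log2 scale, an interaction of -0.15 (95% confidence interval -0.97 to 0.67, edgeR adjusted p = 0.986). For Gad2 the interaction was -0.58 (-1.63 to 0.48, edgeR adjusted p = 0.978). Without WT sham replicate 2 the interaction was 0.12 (-0.30 to 0.55) for Gad1 and -0.27 (-0.85 to 0.32) for Gad2, so the Gad1 value changed sign. Leaving out WT sham replicate 4 gave -0.42 for Gad1 and -0.91 for Gad2, again uncalled. EdgeR called 0 of 15237 genes in the interaction, with 468 at an unadjusted p under 0.05, and DESeq2 called 1, which was neither Gad1 nor Gad2.

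The 2 genes were low together in WT sham replicate 2. There Gad1 was 2.88-fold below the median of the other 15 libraries and Gad2 4.84-fold below it. Of 10427 genes whose average was 3 or more in log2 CPM, 1.99% were as low as Gad1 or lower in this library relative to the others, and 0.777% were as low as Gad2 or lower. On the same scale 427 genes were over 2-fold lower and 176 over 2-fold higher, while the median departure over all of them was 0.015 on the log2 scale. The low Gad values therefore came with many other genes in that library, which could not be named, and what they share was not tested. Gad2 in this library rests on 90 counts. WT sham replicate 4 departed the other way, by 0.53 on the log2 scale for Gad1 and 0.50 for Gad2 above the median of the other libraries, and 99.7% and 99.5% of the genes, respectively, had as low or lower a departure there.

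**Figure D3:**
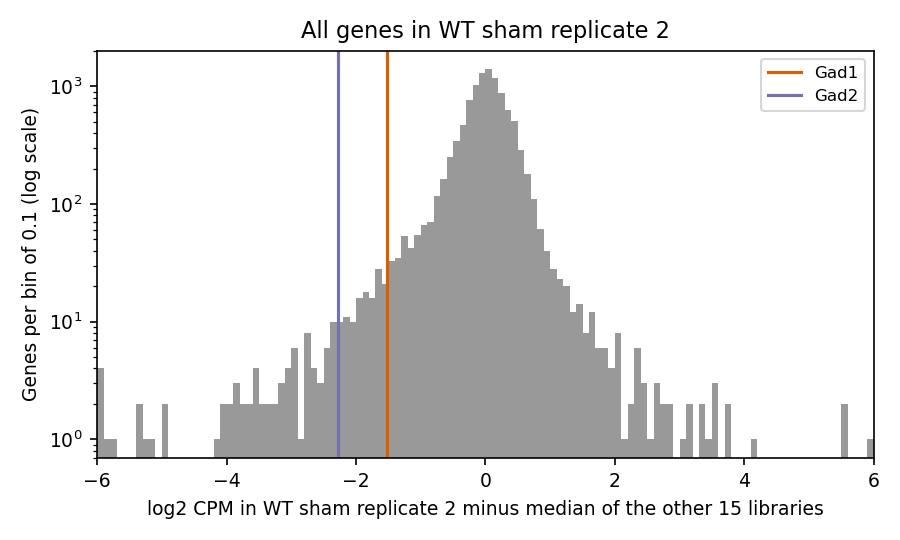
Number of genes (log axis) by their log2 CPM in WT sham replicate 2 minus the median of the other 15 libraries, for 10427 genes, with values beyond the axis counted in its end bins. The lines mark Gad1 and Gad2, both in the lower tail.

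Outside that library the members varied less, though their spread still lay above the trend fitted for genes of their level. The biological coefficient of variation, the spread between libraries beyond counting error, was 27.0% for Gad1 and 35.1% for Gad2 over all 16 libraries, against a trend of 13.8% and 15.1% for genes of their level. Without WT sham replicate 2 it was 13.9% for Gad1 and 18.5% for Gad2, and the trend was 11.9% and 11.8%. The single value fitted to all genes together was then 14.7%, above that of Gad1 and below that of Gad2. Of 10441 genes whose average was then 3 or more in log2 CPM, 14.8% had a higher coefficient than Gad1 and 4.79% a higher one than Gad2.

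The correlation of Gad1 and Gad2 across libraries was high with WT sham replicate 2 and moderate without it. Over all 16 libraries the Pearson correlation of their log2 CPM was 0.929 (Spearman 0.726), and without WT sham replicate 2 it was 0.627 (Spearman 0.668, 15 libraries). These values are given as a description, since the libraries share groups and 1 scaling. Among 10426 other genes, Gad2 stood at place 145 in likeness to Gad1 over all libraries and at place 582 without that library. Seen from Gad2, Gad1 was at places 145 and 633. The median Pearson r with the other genes was -0.033 for Gad1 and -0.049 for Gad2 over all libraries. Without WT sham replicate 2 it was -1.7e-05 for Gad1 and -0.046 for Gad2.

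The IDs most like Gad1 over the 16 libraries were ENSRNOG00000037658 (Pearson r = 0.985), ENSRNOG00000008223 (0.977) and ENSRNOG00000013162 (0.973). Those most like Gad2 were ENSRNOG00000045816 (0.972), ENSRNOG00000002369 (0.971) and ENSRNOG00000006426 (0.969). The files do not pair these IDs with names. With all libraries 324 genes had an r over 0.9 with Gad1 and 319 with Gad2, and without WT sham replicate 2 the number was 2 for each. ENSRNOG00000037658 remained the ID most like Gad1 without that library (r = 0.924), while the ID most like Gad2 became ENSRNOG00000066426 (r = 0.938).

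**Figure D4:**
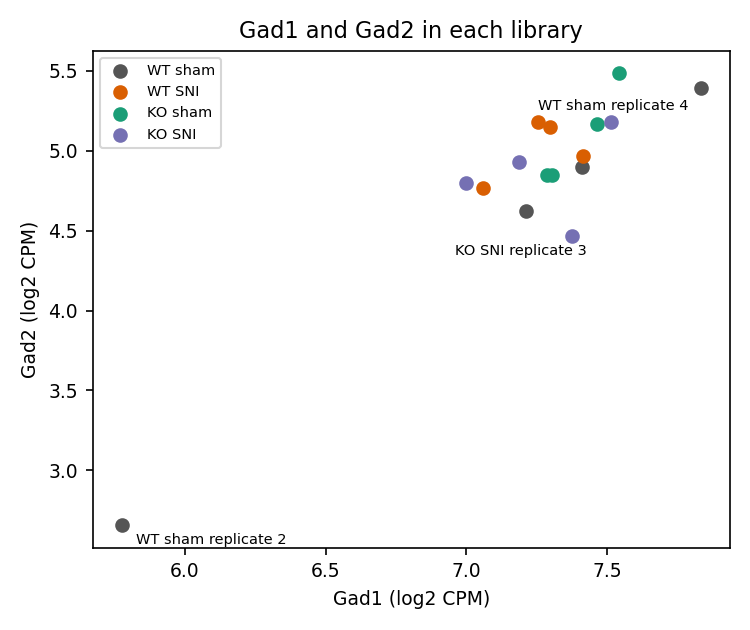
Gad2 against Gad1 in log2 CPM, 1 point per library, coloured by group. WT sham replicate 2 lies far below the other 15 libraries on both axes, and KO SNI replicate 3 has low Gad2 for its Gad1.

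The ratio of Gad1 to Gad2 counts within a library does not depend on library size. It was 6.03, 8.80, 5.72 and 5.42 in WT sham replicates 1 to 4 and 4.22, 5.47, 4.44 and 4.91 in WT SNI. In KO sham it was 5.42, 5.51, 4.92 and 4.17, and in KO SNI 4.78, 5.06, 7.53 and 4.60. The mean ratio in WT was 6.49 ± 1.56 after sham and 4.76 ± 0.555 after SNI, and in KO 5.01 ± 0.614 after sham and 5.49 ± 1.37 after SNI (SD, n = 4 each). In WT the SNI and sham ratios overlapped only in that the highest SNI value, 5.47, lay above the lowest sham value, 5.42. Without replicate 2 the WT sham mean was 5.73 ± 0.304 (SD, n = 3). In KO the mean was higher after SNI than after sham through KO SNI replicate 3 alone: without it the KO SNI mean was 4.81 ± 0.228 (SD, n = 3), below that of KO sham. Differences in this ratio were not tested.

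WT sham replicate 2 and KO SNI replicate 3 departed from the common ratio. In the former both genes were low and Gad2 more so, which gave the highest ratio, 8.80. In the latter Gad2 was low at 22.0 CPM while Gad1, at 166 CPM, was above 2 of the other 3 values of its group. Of the 10427 genes above, 1.38% were as low as Gad2 or lower in KO SNI replicate 3 relative to the other libraries, where Gad2 was 1.38-fold below their median.

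**Figure D5:**
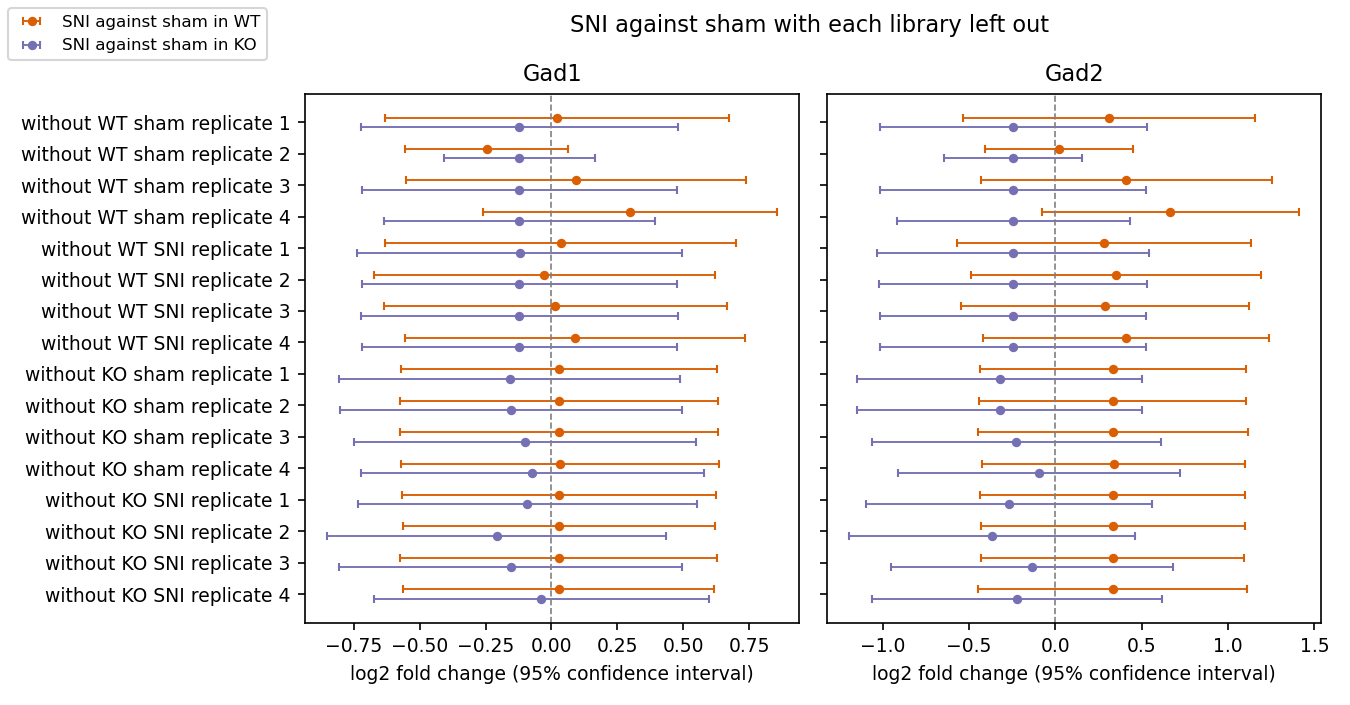
Log2 fold change of SNI against sham, with 95% confidence interval, for Gad1 (left) and Gad2 (right) in WT (orange) and KO (purple), with each of the 16 libraries left out in turn. The WT values move most without WT sham replicate 2 or 4, and every interval includes 0.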

How the data were processed

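Expected counts for 16 libraries, which estimate the reads per Ensembl gene and need not be whole, were deposited by the authors in 1 table (96.4% of values were whole within 1e-09). Library construction used the TruSeq stranded mRNA chemistry, per the labels' protocols. Named in the submitters' processing notes are fastp 0.22.0, STAR 2.7.9a, RSEM 1.3.1 and build mRatBN7.2; for annotation release and strand setting the entry is "not given in the sources used here". Expected counts divide reads that match several genes, so they carry an assignment error.

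Counts were rounded, filtered with filterByExpr (minimum count 10; 15237 genes, 99.97% of counts) and TMM-scaled. A quasi-likelihood fit in edgeR 4.0.16 (R 4.3.3) took all 16 libraries with 4 group means. P-values received Benjamini-Hochberg adjustment across the genes tested, and a gene is called under 0.05; intervals are 95%, per gene and unadjusted. Log2 CPM used a prior count of 2. The code was tested on simulated data. Alternatives used DESeq2 1.42.0, limma 3.58.1 voom, other scaling, no filter and left-out libraries.

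No 2 libraries looked like duplicates (chi-square over its degrees of freedom 7.86 to 120 in 120 pairs). The text names Gad1, Gad2 and the 3 IDs most correlated with each over all 16 libraries, with the first for each without WT sham replicate 2; lists of GABA, glycine, neuron and other cell type genes were not run, since IDs could not be paired with names. The members and lists were chosen with earlier results of these data known.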

Additional observations from a re-analysis of the deposited data

Results flagged for a closer look

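The Gad1 to Gad2 count ratio of KO SNI replicate 3 was 7.53, against 4.60 to 5.06 in the other 3 KO SNI libraries, and its distance from the nearest of them was 0.846 of the group's range, above Dixon's 95% limit for 4 values. On the log2 scale the share was 0.810, below that limit. Of 16 sets of 4 libraries checked (4 quantities in 4 groups, of which the ratio and its log2 are the same data), 1 passed, and chance gives about 1 in 20. WT sham replicate 2 did not pass for Gad1 or Gad2 CPM, at 0.541 and 0.513 of the range.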

How the results depend on the processing

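Over 14 comparisons of Gad1 and Gad2 and 380 alternatives, 0 of the 372 adjusted p-values were under 0.05, 349 values kept their sign and 31 changed it. All values here are log2 fold changes. Leaving out 1 library at a time, Gad1 ranged from -0.25 to 0.30 for SNI in WT, from -0.21 to -0.038 for SNI in KO, from -0.11 to 0.44 for KO after sham, from -0.067 to 0.10 for KO after SNI, from -0.42 to 0.12 for the interaction, from -0.18 to 0.088 for averaged SNI and from -0.044 to 0.23 for averaged KO. Likewise, Gad2 ranged from 0.020 to 0.67 for SNI in WT, from -0.37 to -0.097 for SNI in KO, from 0.11 to 0.75 for KO after sham, from -0.28 to -0.045 for KO after SNI, from -0.91 to -0.27 for the interaction, from -0.11 to 0.21 for averaged SNI and from -0.026 to 0.30 for averaged KO. WT sham replicates 2 and 4 gave the ends of these ranges in 10 of the 14 comparisons, those that use WT sham. With neither KO SNI replicate 1 nor WT sham replicate 2 in the fit, the sign changed for Gad1 to -0.25 in SNI in WT, -0.11 in KO after sham, 0.16 in the interaction and -0.028 in averaged KO, and for Gad2 to -0.12 in averaged SNI and -0.035 in averaged KO. With DESeq2 and no WT sham replicate 2, the sign changed for Gad1 to -0.25 in SNI in WT, -0.10 in KO after sham, 0.12 in the interaction and -0.045 in averaged KO, and for Gad2 to -0.12 in averaged SNI and -0.027 in averaged KO. With limma voom and no WT sham replicate 2, the sign changed for Gad1 to -0.23 in SNI in WT, -0.089 in KO after sham, 0.099 in the interaction and -0.039 in averaged KO, and for Gad2 to -0.090 in averaged SNI and -0.020 in averaged KO. With limma voom over all libraries Gad1 was 0.032 in averaged SNI, against -0.047. The cause was not tested. The DESeq2 and limma fits without that library, library totals as scaling, robust edgeR, likeness without WT sham replicate 2 and the ratio without KO SNI replicate 3 were added after seeing the data. With the replicate number as a block, Gad1 was at 0.080 for SNI in WT and -0.10 for SNI in KO; Gad2 was at 0.43 for SNI in WT and -0.19 for SNI in KO. Libraries of the same number did not deviate together (correlation over 0.1 in 8 of 24 pairs, own number best in 11 of 48), so the numbers were not taken as pairs. No call of Gad1 or Gad2 changed with the block. Exact permutation tests over the 8 libraries of each comparison of 2 groups gave two-sided p from 0.343 to 0.943 (8 tests; smallest possible 0.0286). Genes called over all genes, 12 for SNI in WT, 16 in KO and 139 averaged, became 0 to 20, 3 to 33 and 79 to 177 with 1 library left out, 65, 98 and 223 with DESeq2, 0, 7 and 136 with limma voom and 46, 70 and 143 with the block. Pathway lists were not run (no names). Relative counting error was largest for Gad2 in WT sham replicate 2, with 90 counts.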
